A study of Mus musculus with 17 samples.

Results

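The 8 genes described here belong to the Slc22 family of membrane transporters and were chosen by name: Slc22a2, Slc22a3, Slc22a4, Slc22a5, Slc22a17, Slc22a18, Slc22a21 and Slc22a23, out of 48795 genes in the table. They comprise the organic cation and carnitine transporters of the family, together with Slc22a17, Slc22a18 and Slc22a23, which are less well understood. All 8 were read in each of 17 libraries of mouse kidney cortex, as counts of reads per gene. The libraries fell into 4 groups. There were 5 libraries of wild-type (WT) mice, and 5 of mice labelled ATF4 KO and titled GCERAd (GCERAΔ in the study). There were also 3 libraries of TRACK, a transgenic mouse model of kidney cancer, and 4 of mice labelled TRACK-ATF4 KO and titled GCERAdT. The study's methods state 3 to 4 mice per cohort, so some libraries may share a mouse. GCERAd mice carried a floxed Atf4 on both alleles and a Cre-ER driven by part of the promoter of Ggt1, which is active in proximal tubules, and the deletion was induced with tamoxifen at 6 weeks of age. The study's methods do not say whether WT mice received tamoxifen, and neither the labels nor the methods give the transgene of TRACK, the strain, or the age and treatment of the TRACK and GCERAdT mice. The mice described in the methods were fasted for 16 h before sacrifice. All other cells of the cortex kept Atf4, so a change in these bulk libraries may come from any of its cells, and fewer cells of a type cannot be told apart from less RNA per cell.

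Between 53688512 and 71364561 reads were counted on genes per library. Atf4, the targeted gene, was at 74.8 to 101 CPM (counts scaled to a common library size by TMM) in WT, 55.8 to 75.1 in GCERAd, 77.6 to 93.4 in TRACK and 80.6 to 104 in the libraries labelled GCERAdT. It was lower in GCERAd than in WT (log2 fold change -0.38, adjusted p = 0.0218), though these groups overlapped, and was not called in GCERAdT compared to TRACK (0.17, adjusted p = 0.367). The counts do not separate the floxed part of Atf4 from the rest, but since Atf4 went against the label, each direction drawn from this group is given for the libraries labelled GCERAdT. The WT libraries differed from all 12 others in their sex-linked transcripts. Xist, the transcript of the inactive X chromosome, was at 147 to 422 CPM in WT and at most 6.06 elsewhere, and the sum of 4 Y-linked genes was at most 0.308 CPM in WT and between 129 and 170 elsewhere. In every comparison with WT, the genotype or transgene and this sex-linked difference cannot be told apart. GCERAdT compared to TRACK and GCERAdT compared to GCERAd were free of it. Libraries also fell into 2 kinds by their share of counts on processed pseudogenes. It was between 0.032% and 0.038% in 8 libraries (WT 1, 3, 4 and 5, GCERAd 1 and 2, and GCERAdT 1 and 2) and between 0.0574% and 0.0784% in the other 9, among them all 3 TRACK libraries. GCERAd 4 and 5 stood apart from GCERAd 1, 2 and 3, with a chi-square per gene between 319 and 386 against at most 139 for any other pair within a group. Both were nearer to the TRACK libraries, at 237 to 281 for GCERAd 4 and 188 to 209 for GCERAd 5. GCERAd 1, 2 and 3 were at 401 to 510 from TRACK, and the reason for this split was not tested. Of 2 markers of skeletal muscle, Myh1 was at 3.38 to 10.4 CPM in WT and at most 0.11 elsewhere. Acta1 did not follow it, at no more than 0.0743 CPM in WT and up to 0.35 CPM in TRACK.

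Slc22 proteins carry small organic molecules across the plasma membrane. In the proximal tubule, Slc22a2 (OCT2) takes up organic cations such as creatinine, choline and metformin from the blood side, and Slc47a1 (MATE1) releases them into the urine. Slc22a5 (OCTN2) reabsorbs carnitine, which carries long-chain fatty acids into mitochondria for oxidation, and loss of this transporter causes systemic carnitine deficiency. Slc22a4 (OCTN1) takes up ergothioneine, and Slc22a21 (OCTN3) is a carnitine transporter found in rodents. Slc22a3 (OCT3) is an organic cation transporter of wide distribution, Slc22a17 is known as a receptor of lipocalin-2, Slc22a18 lies in an imprinted region, and Slc22a23 is an orphan transporter.

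Compared per length, as FPKM (CPM per kb of exons), the 8 genes spanned a ratio of 1190 between the highest and the lowest mean over all libraries. Slc22a18 had the highest mean FPKM in each group: 189 ± 15.5 (SD, n = 5) in WT, 224 ± 25.8 (n = 5) in GCERAd, 96.8 ± 22.2 (n = 3) in TRACK and 98.3 ± 11.4 (n = 4) in the libraries labelled GCERAdT. Slc22a2 and Slc22a5 came next and changed places between groups. In WT, Slc22a5 (83.6 FPKM) lay above Slc22a2 (47.9 FPKM) without overlap, whereas in GCERAd Slc22a2 (113 FPKM) lay above Slc22a5 (81.7 FPKM), also without overlap. In TRACK the ranges of Slc22a18, Slc22a2 and Slc22a5 overlapped from neighbour to neighbour, and in the libraries labelled GCERAdT those of Slc22a18 and Slc22a2 did. Slc22a4 followed with means of 17.6 to 22.8 FPKM and Slc22a23 with 8.54 to 15.4 FPKM, and these neighbours overlapped in WT and GCERAd but not in TRACK or GCERAdT. Slc22a17 had means of 3.85 to 5.32 FPKM, and in each group its range lay apart from those of its neighbours. Slc22a21 and Slc22a3 were lowest, with means of 0.579 to 1.01 and 0.0778 to 0.215 FPKM.

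**Figure D1:**
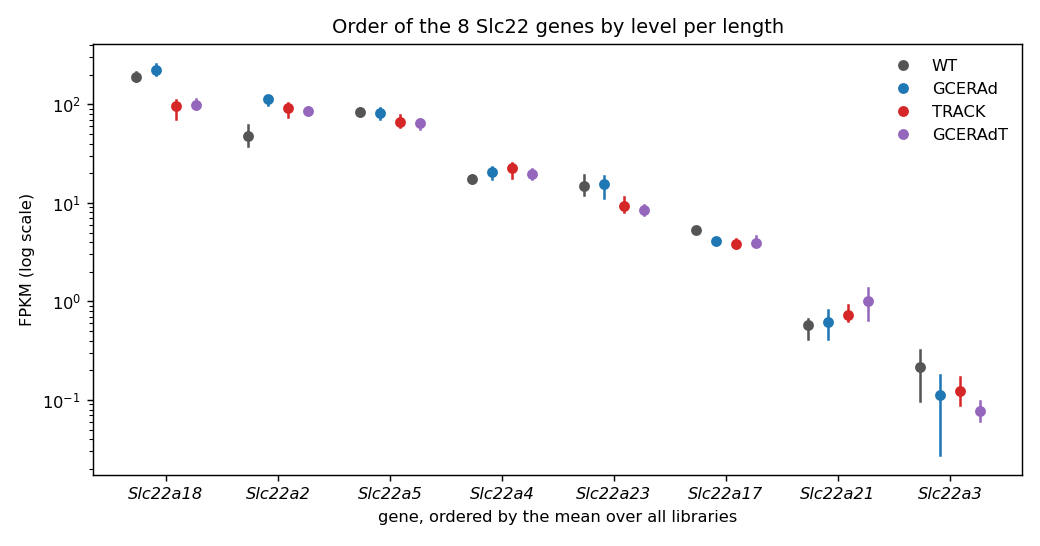
Level per length of the 8 Slc22 genes, as FPKM on a log axis, with genes along the x axis in the order of their mean over all 17 libraries. Dots are group means and vertical lines run from the lowest to the highest library of the group; Slc22a2 lies below Slc22a5 in WT (47.9 and 83.6 FPKM) and above it in GCERAd (113 and 81.7 FPKM).

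The genes lie in 5 places of the genome (GRCm38, GENCODE M21). Slc22a2 (ENSMUSG00000040966, plus strand) occupies chr17:12584132-12628488, beside Slc22a3 (ENSMUSG00000023828, minus strand) at chr17:12418960-12507704. Slc22a5 (ENSMUSG00000018900, chr11:53864542-53891660), Slc22a21 (ENSMUSG00000063652, chr11:53949965-53980332) and Slc22a4 (ENSMUSG00000020334, chr11:53983123-54028090) follow each other on the minus strand. Slc22a18 (ENSMUSG00000000154) lies at chr7:143473736-143499334 on the plus strand, and Slc22a17 (ENSMUSG00000022199, chr14:54906304-54913132) and Slc22a23 (ENSMUSG00000038267, chr13:34179158-34345182) lie on the minus strand. Paralogs shared sequence in part. Of the 51-base words in the exons of Slc22a5, 25.6% also occur in Slc22a21, so reads of Slc22a21, the lower of the pair, are uncertain. On chromosome 17, 9.31% of the exon bases of Slc22a3 overlap Plg on the opposite strand.

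Promoters, as 250 bases before and 50 after the start of transcription, were taken from RefSeq (GRCm38.p6) for 7 of the 8 genes. The 3 sequences below belong to Slc22a2, Slc22a18 and Slc22a23, the genes above 1 FPKM with the largest ratios between group means (2.36, 2.31 and 1.81), and run 5′ to 3′ on the strand of the gene with each CG pair in capitals. They cover chr17:12583939-12584238 (plus strand), chr7:143473539-143473838 (plus strand) and chr13:34345169-34345468 (minus strand).
Slc22a2: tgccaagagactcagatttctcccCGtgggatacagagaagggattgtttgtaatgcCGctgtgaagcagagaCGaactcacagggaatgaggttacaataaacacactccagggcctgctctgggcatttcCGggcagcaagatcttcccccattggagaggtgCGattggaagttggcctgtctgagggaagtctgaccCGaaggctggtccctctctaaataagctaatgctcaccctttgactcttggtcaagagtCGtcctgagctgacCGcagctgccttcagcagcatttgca
Slc22a18: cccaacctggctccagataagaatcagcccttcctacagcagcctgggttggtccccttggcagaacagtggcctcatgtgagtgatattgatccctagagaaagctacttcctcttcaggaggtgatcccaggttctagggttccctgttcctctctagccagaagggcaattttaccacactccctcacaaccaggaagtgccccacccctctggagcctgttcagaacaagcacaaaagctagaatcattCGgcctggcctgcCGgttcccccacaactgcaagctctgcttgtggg
Slc22a23: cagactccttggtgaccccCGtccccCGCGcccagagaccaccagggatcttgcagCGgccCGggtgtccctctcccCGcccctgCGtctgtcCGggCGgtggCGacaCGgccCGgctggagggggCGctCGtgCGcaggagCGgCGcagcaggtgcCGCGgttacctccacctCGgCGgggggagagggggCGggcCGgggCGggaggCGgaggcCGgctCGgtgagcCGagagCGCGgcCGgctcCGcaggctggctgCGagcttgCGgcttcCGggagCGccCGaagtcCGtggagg
Slc22a23 had 38 CG pairs in its window, whereas Slc22a18 had 2 and Slc22a2 had 8, against a median of 7 over 32851 promoters of the same length. Slc22a4 (29 pairs) and Slc22a5 (34 pairs) were also rich in CG, Slc22a17 had 13 pairs and Slc22a3 had 5. Slc22a18 and Slc22a23 thus had promoters at opposite ends of this range. Each is described below as lower in TRACK, though Slc22a23 did not pass there with library kind as a covariate. The letters TGATGNAA, a C/EBP-ATF element to which ATF4 can bind, were searched on both strands and occurred in 0 of the 7 windows and in 3.97% of all promoters. The hypoxia response core ACGTG occurred in 19.6% of all promoters. Among the 7 windows it occurred in Slc22a17, 29 bases before the start, and in Slc22a4, where matches on both strands overlapped 227 and 228 bases before the start. The PPAR element, AGGTCA and, after any base N, AGGTCA again, was found in 0 of the 7 windows and in 0.0396% of all promoters.

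In GCERAd compared to WT cortices, Slc22a2 was higher and Slc22a17 was lower, and the other members did not pass the test. A gene was called where edgeR's quasi-likelihood test gave p of 0.05 or less after Benjamini-Hochberg adjustment. The number called was thus 2 of the 6 members that reached a mean of 1 FPKM in either group, while 27.6% of all 11581 genes tested were called (14.1% higher and 13.5% lower). The median log2 fold change was 0.16 over these 6 members and -0.001 over all genes tested. In TRACK compared to WT, the 6 members tested were all called, Slc22a2 and Slc22a4 as higher and Slc22a5, Slc22a17, Slc22a18 and Slc22a23 as lower, where 45.6% of 11967 genes were called (23% higher and 22.6% lower). With library kind as a covariate, 2 of these 6 were called, Slc22a2 and Slc22a18, and all TRACK libraries were of 1 kind while 4 of 5 WT libraries were of the other. These comparisons share the WT libraries and the sex-linked difference. In the libraries labelled GCERAdT compared to GCERAd, Slc22a2, Slc22a18 and Slc22a23 were lower, 3 of 7 members tested against 19.2% of 11816 genes (9.39% higher and 9.79% lower). Between TRACK and the libraries labelled GCERAdT, 0 of 7 members were called by edgeR, where 7.09% of 11928 genes were. There 0 of the 7 also had an unadjusted p of at most 0.05, as 25.1% of all genes did, and DESeq2 called 0. The number of members whose groups did not overlap was 2 of 6 in GCERAd compared to WT (20.2% of all genes tested), 4 of 6 in TRACK compared to WT (44.3%), 4 of 7 in GCERAdT compared to GCERAd (19.4%) and 0 of 7 in GCERAdT compared to TRACK (23.1%).

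**Figure D2:**
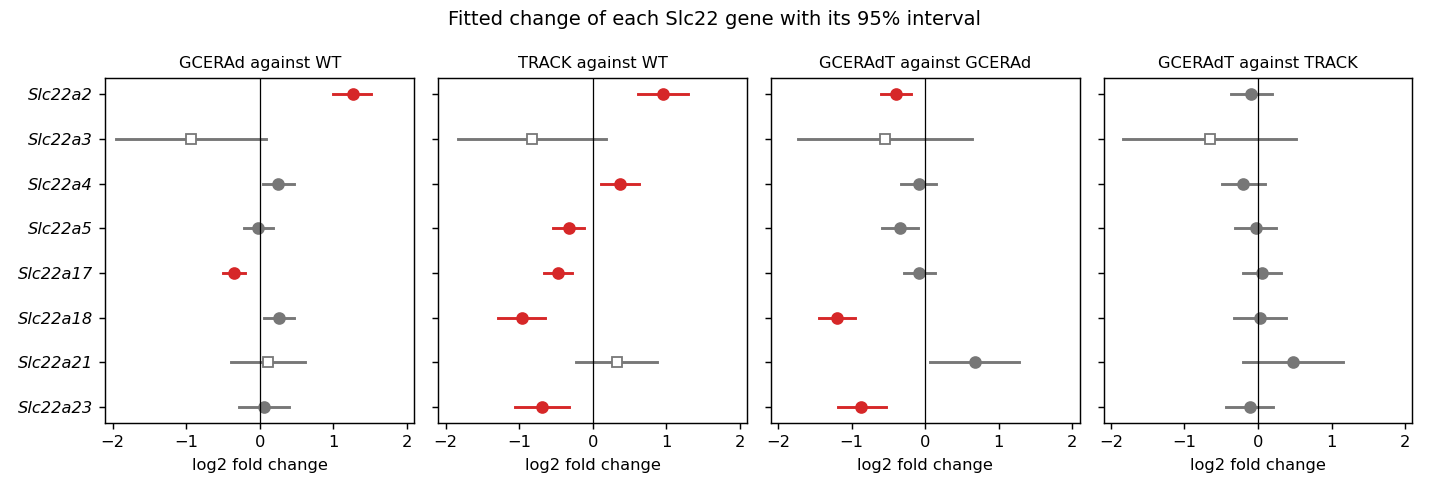
Fitted log2 fold change (x axis) of each Slc22 gene (y axis) in 4 comparisons, with horizontal lines for the 95% interval. Red marks an adjusted p up to 0.05 among all genes tested, open squares mark genes below the FPKM minimum of the comparison; 0 members are red in GCERAdT against TRACK, and Slc22a2 has the largest red change in GCERAd against WT, at 1.26.

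Slc22a2 showed the larger of the changes called among the members in GCERAd. Its level was 118, 107, 152, 94.2 and 125 CPM in WT 1 to 5 and 247, 305, 272, 304 and 277 CPM in GCERAd 1 to 5. In TRACK 1 to 3 it was 259, 248 and 184 CPM, and in GCERAdT 1 to 4 it was 197, 234, 204 and 225 CPM. All 12 libraries outside WT were thus above the highest WT library, and the lowest of these 12 was TRACK 3. The mean rose from 119 ± 21.7 CPM (SD, n = 5) in WT to 281 ± 24.1 CPM (n = 5) in GCERAd, a log2 fold change of 1.26 ± 0.12 (SE, adjusted p = 2.04e-05). The groups did not overlap. In TRACK the mean was 231 ± 40.4 CPM (n = 3), a log2 fold change over WT of 0.96 ± 0.15 (SE, adjusted p = 0.000795), which also passed with library kind as a covariate. Both changes over WT moved with the sex-linked difference, as did 6 of 6 genes known to be higher in male kidneys, whose summed level was between 12.2 and 16.8 CPM in WT and between 1150 and 3431 CPM elsewhere. Of 4 genes known to be higher in female kidneys, 3 were lower than in WT in GCERAd and in TRACK, and Cyp4a14 was not called in either. The sum of these 4 did not set WT apart in the same way. It was 2201 to 3051 CPM in WT, 129 to 3419 in GCERAd, 1985 to 4566 in TRACK and 1790 to 1964 in GCERAdT. Most of this sum in WT was Cyp4a14 (mean 1965 CPM), which ran from 48.6 to 3371 CPM within GCERAd. The other 3 did set WT apart. Prlr was at 239.6 to 337.5 CPM in WT and at most 44.3 elsewhere, and Slc7a12 at 181 to 372 and at most 94.9. Abcc3 was at 45.6 to 148.5 CPM in WT and at most 8.98 elsewhere. The part of genotype, transgene or sex-linked difference in the level of Slc22a2 was not tested.

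Among libraries without this difference, Slc22a2 fell from 281 CPM in GCERAd to 215 ± 17.5 CPM (n = 4) in the libraries labelled GCERAdT, a log2 fold change of -0.40 ± 0.09 (SE, adjusted p = 0.0124), and every library labelled GCERAdT lay below every GCERAd library. Between TRACK and the libraries labelled GCERAdT, the groups overlapped and the log2 fold change was -0.09 (95% interval -0.37 to 0.19, adjusted p = 0.676). The interval excludes a rise of the size seen in GCERAd compared to WT. A test of the difference between both knockout contrasts gave -1.34 for Slc22a2 (SE 0.18, adjusted p = 8.06e-05), and 25.1% of 12208 genes were called in this test (12.3% higher and 12.8% lower). Since WT enters only 1 side of it, this difference carries the sex-linked transcripts too. The 7 markers of proximal tubules, where Slc22a2 is expressed, summed to 5940 to 7492 CPM in WT, 6266 to 9633 in GCERAd, 4094 to 4302 in TRACK and 4231 to 5243 in GCERAdT. In TRACK compared to WT, 3 of the 7 were lower and 1 higher. Slc34a1, a phosphate transporter and the most abundant of them, fell from 3045 to 1060 CPM (adjusted p = 2.23e-05), and Lrp2 and Slc5a12 were also lower, whereas Slc13a1, a sulphate transporter, rose from 277 to 542 CPM (adjusted p = 0.00924). Ggt1, Slc5a2 and Cubn had log2 fold changes of 0.35, -0.21 and -0.24 and were not called. In the libraries labelled GCERAdT compared to GCERAd, 2 of the 7 were lower, Slc34a1 and Ggt1, and 0 higher.

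**Figure D3:**
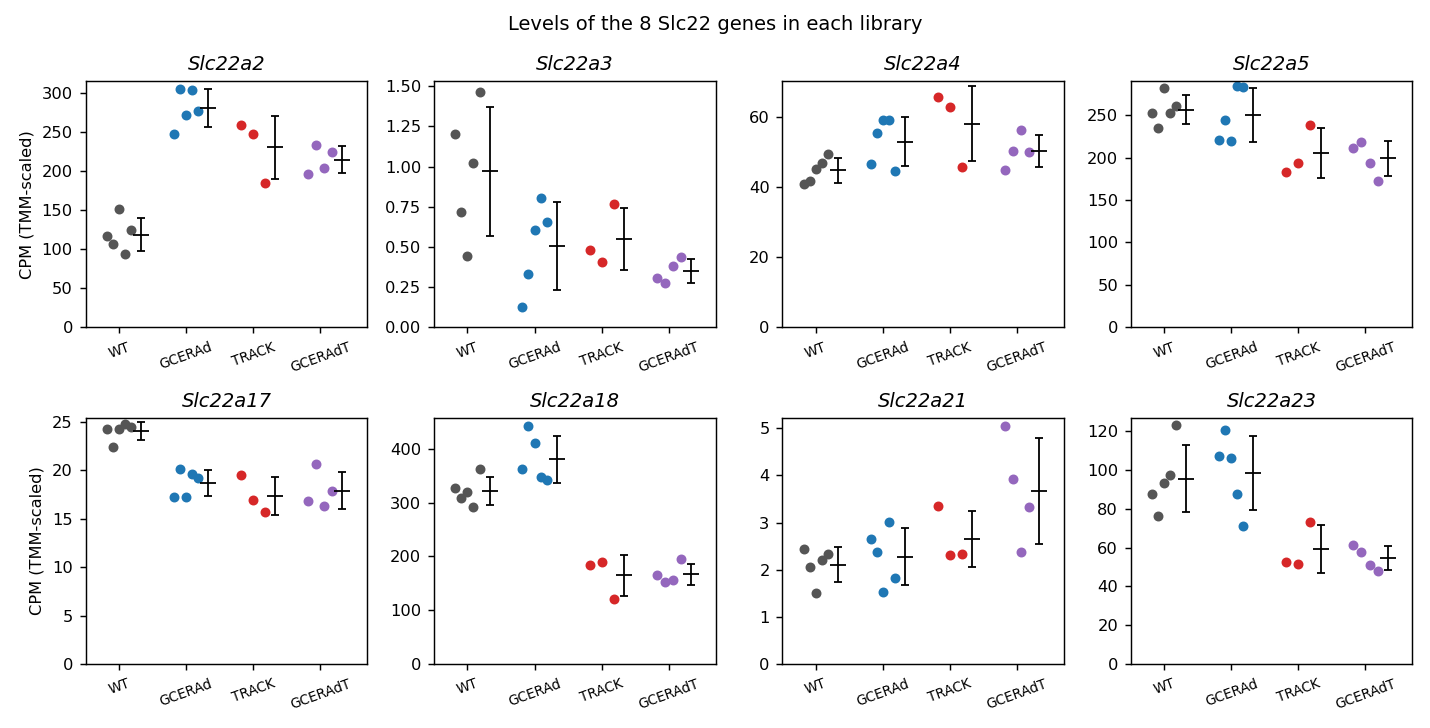
Level of each Slc22 gene in every library, as CPM scaled by TMM (y axis, each panel from 0), by group (x axis). Dots are single libraries in the order of their replicate number, and the bar beside them gives the mean and SD of 3 to 5 libraries; Slc22a2 in WT (94.2 to 152 CPM) lies below all other libraries, and Slc22a18 in TRACK and GCERAdT (121 to 195 CPM) lies below all WT and GCERAd libraries.

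Slc47a1 (MATE1), the exporter on the luminal side, rose in GCERAd compared to WT from 336 to 465 CPM (log2 fold change 0.48 ± 0.11 SE, adjusted p = 0.00657) without overlap. In TRACK compared to WT, the log2 fold change of Slc47a1 was -0.18 (adjusted p = 0.135), and it fell in the libraries labelled GCERAdT compared to GCERAd by 0.68 on the log2 scale (adjusted p = 0.00436). Slc47a1, unlike Slc22a2, was thus not called higher in TRACK.

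Slc22a3 (OCT3), the neighbour of Slc22a2, was close to the limit of detection, with 8 to 88 reads per library. It was between 0.444 and 1.47 CPM in WT, 0.124 and 0.806 in GCERAd, 0.404 and 0.769 in TRACK, and 0.278 and 0.438 in GCERAdT, and each group overlapped WT except the last. The log2 fold change in GCERAd was -0.94 with a wide 95% interval of -1.96 to 0.08 (adjusted p = 0.241 in a fit that kept every gene with a count). A change was not detectable at this depth in any of the comparisons. Plg, whose exons overlap those of Slc22a3, had means of 0.161 CPM in WT and 0.553 CPM in GCERAd, and the strand setting of the counting is not given in the sources used here.

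The carnitine transporter Slc22a5 (OCTN2) was at 253, 235, 282, 253 and 261 CPM in WT 1 to 5 and at 221, 245, 220.0, 285 and 283 CPM in GCERAd 1 to 5. GCERAd 4 and 5, the libraries that stood apart, were both above GCERAd 1 to 3, and the groups overlapped. Means of 257 ± 17.1 CPM in WT and 251 ± 31.9 CPM in GCERAd (n = 5 each) gave a log2 fold change of -0.02 (95% interval -0.22 to 0.18, adjusted p = 0.886). In TRACK 1 to 3, Slc22a5 was at 183, 193 and 239 CPM, which overlapped WT, and it fell by 0.32 on the log2 scale (SE 0.10, adjusted p = 0.0209). With library kind as a covariate, this was -0.19 (adjusted p = 0.354), and without TRACK 1 or without TRACK 2 the call was also lost, at -0.25 and -0.28 (adjusted p up to 0.0975). GCERAdT 1 to 4 had 212, 219, 194 and 173 CPM, each below each GCERAd library, with a log2 fold change against GCERAd of -0.35 that did not pass (adjusted p = 0.0541). It was 0.0213 with DESeq2.

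Slc22a4 (OCTN1), the ergothioneine transporter beside it, was at 40.8, 41.9, 45.1, 47.0 and 49.5 CPM in WT 1 to 5 and at 46.6, 55.5, 59.2, 59.2 and 44.7 CPM in GCERAd 1 to 5, and these groups overlapped (log2 fold change 0.25, 95% interval 0.04 to 0.47, adjusted p = 0.0725). In TRACK 1 to 3 it was at 65.6, 63.0 and 45.8 CPM. TRACK 3 lay within the WT range and the other TRACK libraries above it. Slc22a4 was called higher in TRACK, at a log2 fold change of 0.37 ± 0.12 (SE, adjusted p = 0.024), but it lost the call with library kind in the fit, at a fold change of 0.47 (adjusted p = 0.105), and without WT 1, TRACK 1 or TRACK 2, at 0.28 to 0.34 (adjusted p up to 0.114). In the libraries labelled GCERAdT, Slc22a4 was between 44.8 and 56.3 CPM, with log2 fold changes of -0.20 against TRACK (adjusted p = 0.377) and -0.09 against GCERAd (adjusted p = 0.617). The fitted changes of Slc22a4 and Slc22a5 in TRACK thus had opposite signs, and the ratio of Slc22a5 to Slc22a4 per length had a mean of 4.77 ± 0.382 in WT and 3.07 ± 1.10 in TRACK, with ranges of 4.39 to 5.20 and 2.32 to 4.34 that did not overlap. It was 3.99 ± 0.798 in GCERAd, which overlapped WT (3.09 to 5.27), and 3.32 ± 0.536 in the libraries labelled GCERAdT, which lay below WT (2.87 to 3.93).

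Slc22a21 (OCTN3), the rodent carnitine transporter between them, had 85 to 381 reads per library. It was between 1.51 and 2.45 CPM in WT, 1.52 and 3.00 in GCERAd, 2.30 and 3.35 in TRACK, and 2.37 and 5.05 in GCERAdT. All 4 ranges overlapped, and GCERAdT 1 was the highest library. Against GCERAd, the log2 fold change in the libraries labelled GCERAdT was 0.68 (95% interval 0.07 to 1.28), which did not pass after adjustment (adjusted p = 0.113). Because Slc22a5 had 68.7 to 149.9 times the level of Slc22a21 per length as group means, and shares exon sequence with it, how reads were split between them could affect these values.

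Of 22 other genes of organic cation and carnitine handling, 17 reached the FPKM minimum. In GCERAd compared to WT, 7 were higher and 2 lower, where 14.1% of all genes tested were higher and 13.5% lower, with a median log2 fold change of 0.43 over the 17. The largest rise was in Crot, the carnitine octanoyltransferase of peroxisomes, from 240 to 644 CPM (log2 fold change 1.44 ± 0.15 SE, adjusted p = 5.78e-05). Slc16a9, a monocarboxylate transporter that releases carnitine, rose by 0.89 (adjusted p = 0.000159), and Slc16a12, a creatine transporter, by 0.30 (adjusted p = 0.0428). Tmlhe and Aldh9a1, enzymes of carnitine synthesis, rose by 0.69 and 0.58 on the log2 scale (adjusted p of 0.00378 and 0.0407), while Bbox1, the last enzyme of this synthesis, fell from 15.6 to 5.44 CPM (log2 fold change -1.51, adjusted p = 0.021). The groups overlapped for Aldh9a1, and its change was 0.37 with library kind as a covariate and did not pass (adjusted p = 0.142). Pdzk1, a scaffold of apical transporters that binds Slc22a5, rose by 0.44 (adjusted p = 0.0112). Cpt1a, Cpt2 and Slc25a20, which pass acyl groups into mitochondria with carnitine, had log2 fold changes of 0.43, 0.53 and 0.18 and did not pass. GCERAd 4 and 5, the libraries that stood apart, had 8.90 and 10.3 CPM of Bbox1, reaching the WT range of 9.55 to 19.1, whereas GCERAd 1 to 3 had 3.16, 1.80 and 3.07 CPM. GCERAd 4 and 5 also had 902 and 919 CPM of Cpt1a, whereas GCERAd 1 to 3 had 465, 551 and 499.6 CPM.

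In the libraries labelled GCERAdT compared to TRACK, 5 of these 17 genes were lower and 0 higher by edgeR, where 4.28% of all genes tested were lower and 2.81% higher. At an unadjusted p of at most 0.05, 8 were lower and 0 higher, and DESeq2 called 7 as lower and 0 as higher. The 5 were Slc16a9 (log2 fold change -0.48, adjusted p = 0.0131), Slc25a20 (-0.69, adjusted p = 0.0151), Cpt2 (-0.41, adjusted p = 0.0407), Bbox1 (-0.73, adjusted p = 0.0134) and Lcn2 (-2.30, adjusted p = 0.0261). With library kind as a covariate, Slc16a9 (-0.47, adjusted p = 0.0453) and Slc25a20 (-0.50, adjusted p = 0.0381) were still called, and Cpt2, Bbox1 and Lcn2 had log2 fold changes of -0.37, -0.65 and -2.27 that did not pass. Slc22a5 itself had a log2 fold change of -0.03 there (95% interval -0.31 to 0.24, adjusted p = 0.888). Slc16a9 differed between both knockout contrasts, being higher in GCERAd than in WT and lower in the libraries labelled GCERAdT than in TRACK (difference -1.37, adjusted p = 1.1e-05). Bbox1 was lower in both contrasts. In TRACK compared to WT, 10 of the 17 genes were higher and 2 lower (6 and 0 with library kind as a covariate), where 23% of all genes were higher and 22.6% lower. In the libraries labelled GCERAdT compared to GCERAd 1 was higher and 6 were lower, where 9.39% of all genes were higher and 9.79% lower.

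**Figure D4:**
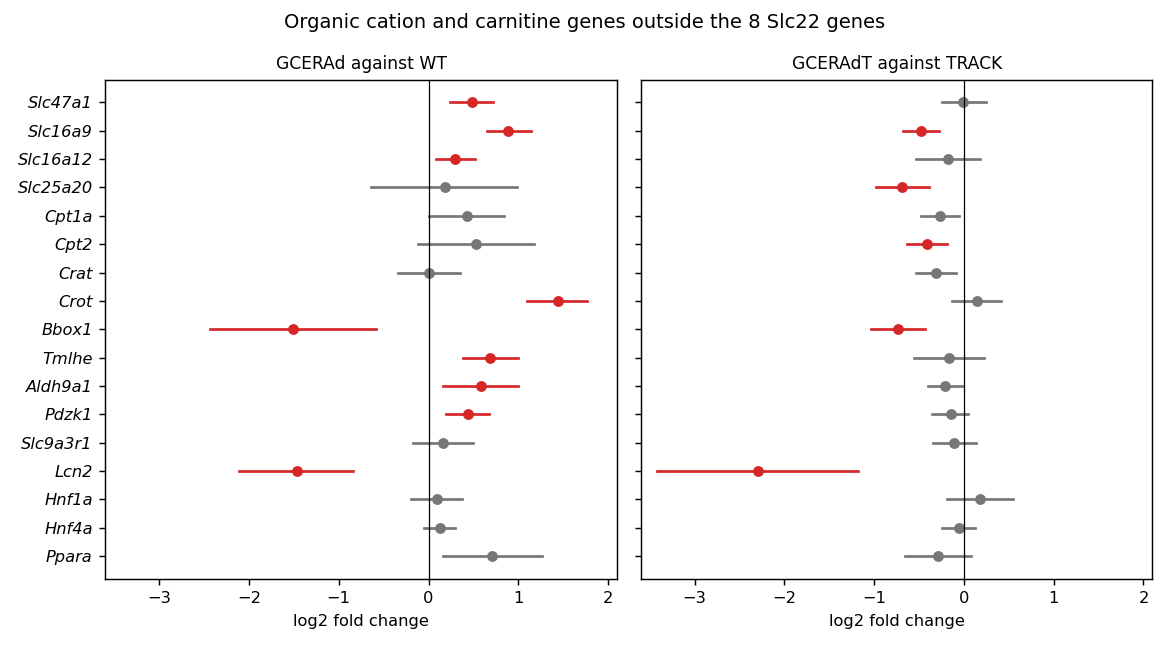
Fitted log2 fold changes (x axis) of the 17 other genes of organic cation and carnitine handling that reached the FPKM minimum (y axis), with lines for the 95% interval and red for an adjusted p up to 0.05 among all genes tested. In GCERAd against WT 7 genes are higher and 2 lower, and in GCERAdT against TRACK 0 are higher and 5 lower.

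Slc22a17, the lipocalin-2 receptor, was at 24.2, 22.4, 24.3, 24.8 and 24.4 CPM in WT 1 to 5 and at 17.2, 20.1, 17.3, 19.7 and 19.2 CPM in GCERAd 1 to 5, without overlap. It fell from 24.0 ± 0.932 CPM to 18.7 ± 1.37 CPM (n = 5 each), a log2 fold change of -0.35 ± 0.07 (SE, adjusted p = 0.00291). TRACK 1 to 3 had 19.5, 16.9 and 15.7 CPM, also below all WT libraries (log2 fold change -0.47 ± 0.09 SE, adjusted p = 0.00172). This change was -0.37 with library kind as a covariate and did not pass (adjusted p = 0.0652). GCERAdT 1 to 4 had 16.8, 20.6, 16.3 and 17.9 CPM, and Slc22a17 was not called against TRACK (0.05, 95% interval -0.21 to 0.31) or against GCERAd (-0.08, 95% interval -0.29 to 0.13). Slc22a17 is known from the distal tubule and collecting duct, and the principal cell markers of the collecting duct, Aqp2, Aqp3 and Fxyd4, were all lower in GCERAd and in TRACK than in WT. Their sum was 666 to 846 CPM in WT, 227 to 451 in GCERAd, 333 to 392 in TRACK and 166 to 355 in GCERAdT. Of 3 markers of intercalated cells, 1 was lower in GCERAd than in WT and 2 were lower in TRACK. Of 2 markers of the distal convoluted tubule, 1 was lower in GCERAd and 2 in TRACK, and 0 of either list were higher. The part of these markers in the lower level of Slc22a17 was not tested. Slc22a17 and the principal cell markers both moved with the sex-linked difference.

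Lcn2, which encodes lipocalin-2, its ligand and a marker of tubular injury, was at 1.65 to 3.71 CPM in WT and 0.643 to 1.39 CPM in GCERAd, and fell by 1.47 on the log2 scale (adjusted p = 0.003). In TRACK 1 to 3 it was at 7.07, 5.66 and 25.5 CPM, and in GCERAdT 1 to 4 at 3.02, 2.03, 1.70 and 3.56 CPM. All TRACK libraries were above all others, and TRACK 3 was far above the other TRACK libraries. Ligand and receptor were therefore both lower in GCERAd than in WT, whereas in TRACK compared to WT Lcn2 was higher (log2 fold change 2.17, adjusted p = 0.00313) and Slc22a17 lower. With library kind as a covariate, neither change in TRACK passed, at 2.19 for Lcn2 (adjusted p = 0.0997) and -0.37 for Slc22a17 (adjusted p = 0.0652).

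Slc22a18, the gene of the imprinted region on chromosome 7, separated the mice with the TRACK transgene from those without it. It was at 327, 308, 319, 291 and 362 CPM in WT 1 to 5, and at 362, 442, 411, 347 and 341 CPM in GCERAd 1 to 5. TRACK 1 to 3 had 183, 189 and 121 CPM, and GCERAdT 1 to 4 had 165, 152, 156 and 195 CPM. The 7 libraries of TRACK and GCERAdT lay below the 10 of WT and GCERAd, with the highest of the former at 195 and the lowest of the latter at 291 CPM. In TRACK compared to WT the mean fell from 321 ± 26.3 (n = 5) to 165 ± 37.6 CPM (n = 3), a log2 fold change of -0.96 ± 0.14 (SE, adjusted p = 0.000467). This call held with library kind as a covariate. In the libraries labelled GCERAdT compared to GCERAd, with no sex-linked difference, it fell from 381 ± 43.8 (n = 5) to 167 ± 19.4 CPM (n = 4), a log2 fold change of -1.20 ± 0.11 (SE, adjusted p = 5.55e-05). The summed proximal tubule markers were also lower in TRACK than in WT and in the libraries labelled GCERAdT than in GCERAd, and their part was not tested. Not all markers followed the sum, of which Slc34a1 was the most abundant. Of the 7, 3 were called lower and 1 higher in TRACK compared to WT, and 2 lower and 0 higher in GCERAdT compared to GCERAd.

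In GCERAd compared to WT, Slc22a18 had a log2 fold change of 0.26 (95% interval 0.06 to 0.46), which did not pass (adjusted p = 0.0556). It passed with library kind in the fit (adjusted p = 0.0328), without WT 5, GCERAd 4 or GCERAd 5, and with both of these GCERAd libraries left out (0.35, adjusted p = 0.013). Against TRACK, the log2 fold change in the libraries labelled GCERAdT was 0.03 (95% interval -0.32 to 0.38, adjusted p = 0.921). Of the neighbours of Slc22a18, Kcnq1, a potassium channel of the same imprinted region, fell by 0.24 on the log2 scale in GCERAd compared to WT (adjusted p = 0.0405).

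Slc22a23, the orphan transporter, was at 87.6, 76.2, 93.4, 97.5 and 123 CPM in WT 1 to 5 and at 107, 120, 106, 87.4 and 71.2 CPM in GCERAd 1 to 5. These groups overlapped (log2 fold change 0.06, 95% interval -0.28 to 0.39, adjusted p = 0.815), and GCERAd 4 and 5 were below the other GCERAd libraries. TRACK 1 to 3 had 52.7, 51.7 and 73.4 CPM, and GCERAdT 1 to 4 had 61.2, 57.8, 51.02 and 48.0 CPM. The highest library of TRACK, 73.4 CPM, was below the lowest of WT, and the highest of GCERAdT, 61.2 CPM, below the lowest of GCERAd. In TRACK compared to WT, Slc22a23 fell by 0.69 on the log2 scale (SE 0.16, adjusted p = 0.00708), which was -0.36 with library kind as a covariate and did not pass (adjusted p = 0.272). From GCERAd to the libraries labelled GCERAdT it fell by 0.87 ± 0.15 (SE, adjusted p = 0.00283). Against TRACK, the libraries labelled GCERAdT differed by -0.11 (95% interval -0.43 to 0.20, adjusted p = 0.652).

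Libraries of GCERAd and GCERAdT with the same replicate number deviated together, and they also shared their library kind, whose part in this was not tested. Of the pairs of 1 kind with different numbers, GCERAd 1 with GCERAdT 2 and GCERAd 2 with GCERAdT 1 deviated together too (r of 0.47 each). The number was therefore not shown to pair the mice. With the number as a replicate block 3731 genes were called between these groups in place of 2266. The 3 members called did not change, with log2 fold changes of -0.39 for Slc22a2 (adjusted p = 0.00391), -1.23 for Slc22a18 (adjusted p = 0.00101) and -0.95 for Slc22a23 (adjusted p = 0.000309). For Slc22a4, Slc22a5, Slc22a17 and Slc22a21, the block gave no call.

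Protein-coding genes within 100 kb of a member numbered 26, not counting members, of which 14 reached the FPKM minimum in GCERAd or WT. In GCERAd compared to WT, 2 were higher and 2 lower, a share close to the 27.6% of all genes that were called. Igf2r, the imprinted receptor of insulin-like growth factor 2 near Slc22a2, rose from 101 to 151 CPM (log2 fold change 0.60, adjusted p = 0.00582), and P4ha2, a collagen prolyl hydroxylase near Slc22a4, by 0.49 (adjusted p = 0.00121). Besides Kcnq1, the tubulin gene Tubb2b near Slc22a23 was lower (-0.88, adjusted p = 0.00439). Between TRACK and the libraries labelled GCERAdT, 0 of 14 neighbours were called by edgeR, where 7.09% of all genes were, with 3 at an unadjusted p of at most 0.05, and DESeq2 called 2.

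Over the 17 libraries, the gene most like Slc22a2 in its log2 level was Slco3a1, an organic anion transporter (Pearson r = 0.98), followed by Them7 and Treh, the latter encoding trehalase (both also 0.98). For Slc22a18 these were Abat, the enzyme that breaks down GABA (0.97), Gys2 (0.97) and Gipc2 (0.97), and for Slc22a23 Tln2, an actin-linking protein of cell adhesions (0.98), Dmtn (0.95) and Slc26a1 (0.95). Slc22a17 was most like Psmd3 (0.92), Slc22a5 like Lima1 (0.88), Slc22a21 like Dhx32 (0.84) and Slc22a4 like Cmas (0.81). These values describe libraries that share their groups, and part of the likeness comes from the group means. With group means subtracted, 2 of these 21 genes were still among the 3 most like their member, Tln2 and Dmtn with Slc22a23. Among the members themselves, correlations within groups ran from -0.65, between Slc22a5 and Slc22a18, to 0.58, between Slc22a4 and Slc22a18, and 24 of the 28 pairs were within 0.5 of 0.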

How the data were processed

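Libraries were made from kidney cortex RNA with a poly(A) kit that marks strand, and the authors deposited read counts per gene without normalization. Per the labels and the study's methods, reads were converted with bcl2fastq 2.20, trimmed with Cutadapt, aligned to GRCm38 with STAR and counted with HTSeq. The annotation release, the strand setting and the treatment of reads with several matches are not given in the sources used here. The 8 members, the gene lists and the rules for naming genes were chosen with earlier results of these data known. Named genes are the members, called genes of the cation and carnitine list and of the neighbours within 100 kb, and the 3 genes of highest correlation with each member. A gene was left out of these lists and is not reported here.

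Groups were compared with edgeR 4.0.16 in R 4.3.3 (quasi-likelihood test, TMM scaling, two-sided), fitting the compared groups alone, or all 17 libraries for the difference between contrasts. Genes were tested where any group of the fit reached a mean of 1 FPKM, and members or listed genes under it were read from a fit that kept every gene with reads. Calls were made at a p of 0.05 or less after Benjamini-Hochberg adjustment across the genes of the fit. CPM are scaled by TMM, and FPKM are CPM per kb of merged exons (GENCODE M21; 48435 identifiers had a length and 360 had none). Correlations used log2(CPM + 0.5). The labels number the mice of each group, but the methods state 3 to 4 mice per cohort, so p-values measure the spread between libraries, some of which may share a mouse. Within-group pairs of libraries differed by 24.5 to 386 in chi-square per gene, and all were counted as separate. Same-numbered libraries of GCERAd and GCERAdT deviated together (r of 0.39 to 0.56 over 4 pairs), and 6 of 8 libraries correlated best with their own number. These pairs also share library kind, and so do pairs with different numbers that deviated together. GCERAd 1 with GCERAdT 2 and GCERAd 2 with GCERAdT 1 were both at 0.47, and WT 2 with GCERAdT 3 at 0.66. This check thus did not show a pairing by number apart from library kind, and the pairing was not taken from the labels. In the other comparisons at least 1 same-numbered pair was at or below 0.01. Alternatives were RLE scaling, DESeq2 1.42.0, other minimums, the replicate block, library kind, possible repeat libraries summed, all libraries in 1 fit, and each library left out. The possible repeats were WT 1 with WT 2, and GCERAd 2 with GCERAd 3. The procedure was tested on simulated data.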

Additional observations from a re-analysis of the deposited data

Results flagged for a closer look

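Slc22a2 was flagged because its ATF4 knockout contrast differed between mice with and without the TRACK transgene. The contrast was 1.26 on the log2 scale without TRACK (95% interval 1.00 to 1.51) and -0.09 with it (95% interval -0.37 to 0.19), a difference of -1.34 (standard error 0.18, adjusted p = 8.06e-05, edgeR). All 5 GCERAd libraries were above all 5 WT libraries, whereas GCERAdT and TRACK overlapped. With each library left out in turn the difference lay between -1.49 and -1.25. The 3 TRACK libraries, like the GCERAd and GCERAdT libraries, held Y-linked transcripts, and the WT libraries had none of Ddx3y, Eif2s3y or Uty, so the knockout without TRACK and the sex-linked state cannot be told apart.

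Slc22a17 was flagged on 2 counts. Its knockout contrast was -0.35 without TRACK and 0.05 with it, a difference of 0.40 (standard error 0.12, adjusted p = 0.0243, edgeR), which lost its call under several alternatives at differences of 0.33 to 0.41. WT 2 had 22.4 CPM of Slc22a17, 0.777 of the group's range away from the nearest of the other WT libraries, which lay between 24.2 and 24.8 CPM. A gap beyond the cutoff of this flag is met by chance in about 1 group in 20, and each member was screened in WT, GCERAd and GCERAdT. WT 2 was the WT library with the higher share of counts on processed pseudogenes (0.0644%), and its part in the level was not tested.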

How the results depend on the processing

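Of 736 member values recomputed under the alternatives, 700 kept their direction and side of the threshold, 17 lost a call, 19 gained one and 0 changed sign as a call. The calls of Slc22a2 and Slc22a17 in GCERAd compared to WT, of Slc22a2 and Slc22a18 in TRACK compared to WT, of Slc22a2, Slc22a18 and Slc22a23 in GCERAdT compared to GCERAd, and of Slc22a2 in the difference between contrasts held under all alternatives run. With the replicate number as a replicate block, 2106 genes were called in GCERAd compared to WT and 3382 in TRACK compared to WT, where the numbers do not pair the libraries (0 of 10 and 1 of 6 libraries correlated best with their own number), and 3731 in GCERAdT compared to GCERAd, where same-numbered libraries deviate together and share library kind. DESeq2 called 1562 genes in GCERAdT compared to TRACK. With library kind as a covariate, 462 genes were called in GCERAdT compared to TRACK and 2776 in TRACK compared to WT, of which 2 were members. In the difference between contrasts, 1 member was called without a filter on low values, with the replicate block and with library kind as a covariate, in each case with the call of Slc22a17 lost at a difference of 0.37, 0.41 and 0.34 (adjusted p of 0.104, 0.105 and 0.0893). Leaving out each library in turn gave 2477 to 3246 genes and 2 to 4 members in GCERAd compared to WT, 379 to 1424 genes and 0 members in GCERAdT compared to TRACK (lowest without GCERAdT 2, highest without GCERAdT 4), 4101 to 6041 genes and 4 to 6 members in TRACK compared to WT, 1427 to 2336 genes and 3 to 4 members in GCERAdT compared to GCERAd, and 2205 to 3303 genes and 1 to 3 members in the difference. With group means subtracted, 2 of the 21 most similar genes stayed. The cause was not tested in any of these cases. All 32 group means moved by less than 1 SD on the plain total of counts, and RLE scaling moved the median over all genes by less than 0.02. A term for Y-linked transcripts was not run, since the groups leave it no full rank. Leaving out GCERAd 4 and 5 together was chosen after seeing the data and changed 2 calls, Slc22a18 in GCERAd compared to WT (adjusted p = 0.013) and Slc22a4 in the difference (adjusted p = 0.05). Depth limits Slc22a3 and Slc22a21, with 8 to 88 and 85 to 381 reads per library.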
